A study of Rattus norvegicus with 16 samples.

Results

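This account covers the genes of calcium, sodium and chloride channel subunits in rat plantaris muscle during growth under load. The members were the transcript clusters whose annotation gave exactly 1 gene symbol and whose symbol began with Cacna, Cacnb, Cacng, Scn and a digit, or Clcn, or was a ryanodine (Ryr) or inositol trisphosphate (Itpr) receptor. The cluster with the highest mean was used for each gene. This gave 29 genes from 30 clusters, of 14557 genes tested. No ryanodine receptor had a cluster by this rule, nor did Cacna1s, Cacna1c, Cacnb1, Cacnb3, Clcn1, Clcn3 or Clcn5, and these were not analysed here. In the study, the Achilles tendon was removed from both hindlimbs of Sprague Dawley rats labelled as retired breeders, so that the plantaris took over the load of the gastrocnemius and soleus. The 16 arrays held 4 plantaris samples each at day 0 (muscle labelled as control, not overloaded) and at 3, 7 and 28 days from surgery. There was no sham-operated group among them, so load and surgery cannot be told apart. Replicates carry numbers, but no label says whether each was its own animal. The p-values therefore reflect the scatter among these samples alone, part of which may be technical.

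Skeletal muscle fibres fire when sodium channels in the surface membrane open. An alpha subunit of such a channel forms the pore, and beta subunits, which cross the membrane once and carry an immunoglobulin-like domain, adjust its gating. The voltage-gated calcium channel of the muscle transverse tubule is built of a pore subunit with alpha-2-delta, beta and gamma subunits, and it senses the voltage that leads to calcium release from the sarcoplasmic reticulum. The Clcn family holds both chloride channels of the surface membrane and exchangers of chloride for protons in endosomes and lysosomes.

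Values were log2 expression levels per transcript cluster, normalised by the authors. Array medians over all 36685 clusters lay between 3.19 and 3.41, and arrays of the same day correlated at 0.985 to 0.99 across genes, which are not independent replicates. Of 16 adult fibre genes listed, 12 were measured, and their mean level per array lay between 12.69 and 12.73 at day 0, between 11.98 and 12.31 at day 3, between 12.39 and 12.54 at day 7, and between 12.62 and 12.70 at day 28. A macrophage list (16 of 20 genes measured, 0 of them dim) lay between 4.57 and 4.84 at day 0, between 8.69 and 9.09 at day 3, between 7.26 and 7.75 at day 7, and between 5.86 and 6.33 at day 28. In bulk muscle, fewer cells of a type and less RNA per cell cannot be told apart, and the part that the changing mix of cells had in the results below was not tested. Differences between day means are on the log2 scale and carry the SE that limma gave (n = 4 arrays a day). The words rose and fell are kept for genes whose p, after Benjamini-Hochberg adjustment over all genes tested, was under 0.05.

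Only some members gave a signal that can be followed. A gene was called dim where its mean over all 16 arrays lay under 3.3, the average of the array medians over all clusters, and bright where it lay above 4.52, the median of the tested genes. By this measure 12 members were bright, 1 was low (between the limits) and 16 were dim. The bright members were Scn4a, Scn7a, Scn3b, Scn4b, Cacna2d1, Cacng1, Cacng6, Cacng7, Itpr1, Clcn4, Clcn6 and Clcn7. The low member was Cacna2d3 (3.77). The lowest bright member was Scn7a (4.79), and the highest dim members were Cacng4 (2.96) and Cacna1h (2.93). As a yardstick of silent genes, 97.4% of 1104 olfactory receptor genes fell under the dim limit and 4 of them reached the bright range. Levels of different clusters depend on their probes, so only the same gene is compared between days.

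**Figure D1:**
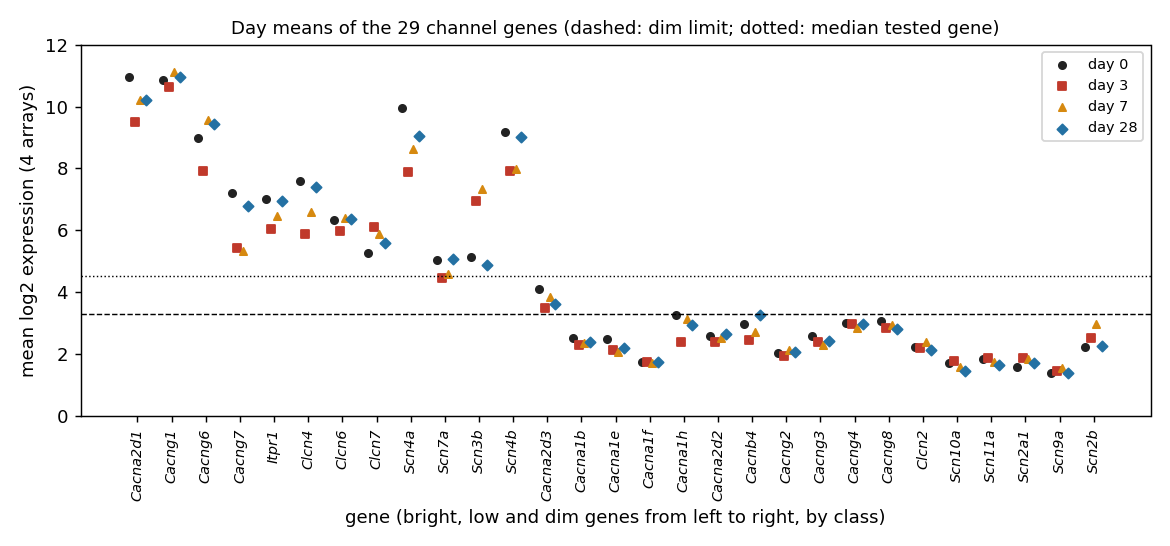
Day means (log2 expression, 4 arrays each) of the 29 channel genes, grouped from left to right as bright, low and dim and then by class, with a marker for each day. The dashed line is the dim limit of 3.3 and the dotted line the median tested gene at 4.52. Spread between days is seen mainly among the 12 bright genes, and the 16 dim genes keep to the lower edge.

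At day 3, 2 members had risen and 10 had fallen, at day 7 4 had risen and 6 had fallen, and at day 28 0 had risen and 3 had fallen, each against day 0. In all, 41.4% of members had changed at day 3, 34.5% at day 7 and 10.3% at day 28. Over all genes the shares were 41.3%, 31.7% and 9.09%, so the members' share that changed in either direction was near that. Dim genes, however, made up 55.2% of the members and 40.7% of all genes. By direction, 6.9% of members had risen and 34.5% fallen at day 3. The members' shares were 13.8% and 20.7% at day 7, and 0% and 10.3% at day 28. Of all genes, 21.7% had risen and 19.6% fallen at day 3, 16.9% and 14.9% at day 7, and 6.29% and 2.80% at day 28. The members' median difference was -0.23 at day 3, -0.11 at day 7 and -0.07 at day 28, beside -0.052, -0.043 and -0.005 over all genes. These comparisons share the day 0 arrays. Among the 12 bright members (defined above by their mean over all days), 2 rose and 8 fell at day 3, and 3 rose and 6 fell at day 7. Bright genes as a whole changed more often too, with 62.7% changed at day 3 (33.2% up, 29.5% down) and 50.1% at day 7 (26.8% up, 23.3% down). The arrays of a later day and of day 0 did not overlap in 10 of the 29 members at day 3 (34.5%), 10 at day 7 (34.5%) and 5 at day 28 (17.2%), beside 39.3%, 32.1% and 15.9% of all genes tested. Between loaded days, day 7 had 5 members higher and 0 lower than day 3 (6.02% and 9.23% of all genes). An unadjusted p under 0.05 in limma was found there for 9 members, each of them higher at day 7. No share of all genes was taken at the unadjusted threshold, so this count has no yardstick. Day 28 had 4 higher and 2 lower than day 7 (8.24% and 9.38% of all genes). Of all genes 15.3% and 17.6% changed in these 2 comparisons. The arrays did not overlap in 7 members (24.1%) and 6 members (20.7%), beside 18.0% and 21.1% of all genes. At day 28 against day 0, 4 members had an unadjusted p under 0.05 in limma, again without a share of all genes at that threshold. They were the fallen Scn4a, Cacna2d1 and Cacna2d3, and Cacng6, which was 0.43 higher (unadjusted p = 0.0324).

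Centring each array on the median of the tested genes moved the median gene's difference from day 0 by -0.46 (day 3), -0.36 (day 7) and -0.25 (day 28). It moved the difference of day 7 against day 3 by 0.10 and of day 28 against day 7 by 0.11. With that centring 1 member rose and 21 fell at day 3, 1 rose and 16 fell at day 7, and 0 rose and 5 fell at day 28. Of all genes, 12.9% rose and 58.0% fell at day 3 with that centring, 9.73% and 48.3% at day 7, and 3.74% and 20.9% at day 28. Centring on the brighter 50% of genes shifted the day 3 difference by -0.16. Calls on single genes that any scaling ended are given beside them below.

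**Figure D2:**
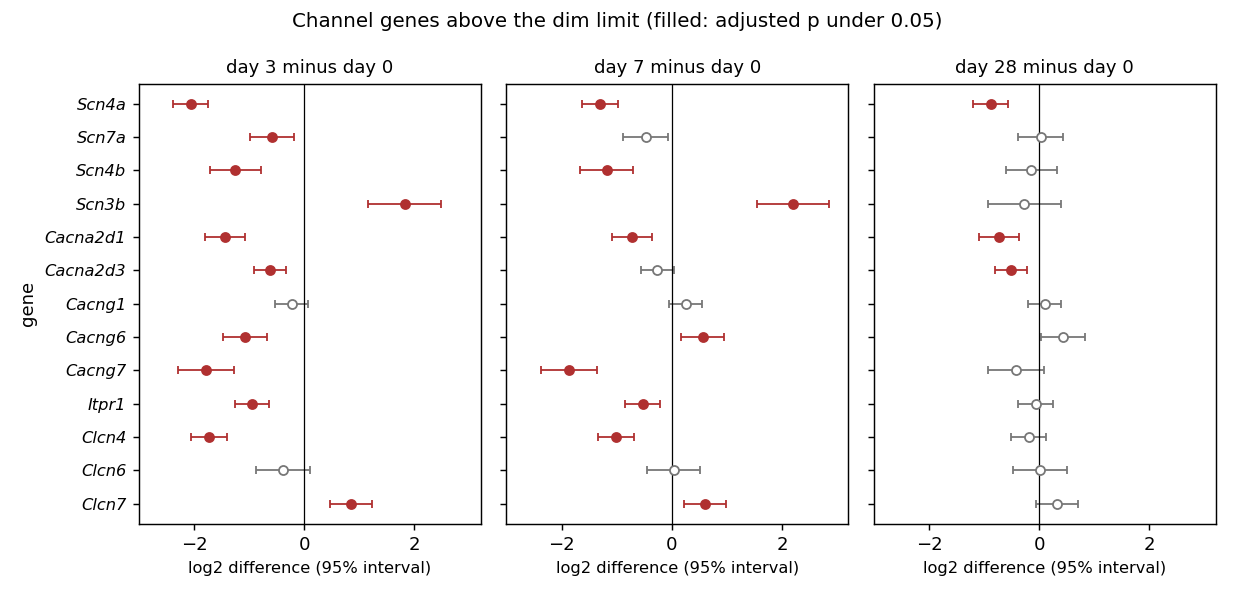
Log2 differences from day 0 at days 3, 7 and 28 for the 13 members above the dim limit, with 95% intervals from limma. Filled red points passed an adjusted p of 0.05 and open grey points did not. Scn4a and Cacna2d1 lie below 0 on all 3 days, and Scn3b lies above 0 at days 3 and 7.

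Among the pore-forming sodium channel genes, Scn4a fell and was still below day 0 at day 28. Scn4a encodes the main sodium channel of adult skeletal muscle, which carries the action potential along the fibre. It read 10.11, 9.81, 9.98 and 9.88 at day 0, then 8.07, 7.82, 8.22 and 7.42 at day 3, 8.58, 8.50, 8.64 and 8.86 at day 7, and 8.98, 9.11, 8.94 and 9.21 at day 28. All arrays of each loaded day lay below all day 0 arrays. The level was 4.18-fold lower at day 3 (-2.06 ± 0.15, adjusted p = 8.57e-09 in limma), 2.46-fold lower at day 7 (-1.30 ± 0.15, adjusted p = 5.11e-06) and 1.84-fold lower at day 28 (-0.88 ± 0.15, adjusted p = 0.00126). Scn4a rose by 0.76 ± 0.15 at day 7 against day 3 (adjusted p = 0.00229), while its difference of 0.42 ± 0.15 at day 28 against day 7 did not pass (adjusted p = 0.0725), although the arrays of those 2 days did not overlap. It passed with arrays centred on the tested genes (0.52), with an intensity trend (0.42), without the dimmest 50% of genes (0.42) and without day 3 replicate 4 (0.42). The Scn4a difference at day 28 lay between -1.13 and -0.83 over 28 alternative settings and arrays left out, and passed in each. Of the 12 adult fibre genes measured, 0 rose and 7 fell at day 3 (median -0.62) and 0 rose and 3 fell at day 7 (median -0.15). At day 28 0 of them rose and 0 fell (median -0.05), where 0 had an unadjusted p under 0.05 in limma.

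Scn7a encodes an atypical member of the alpha family that responds to the sodium concentration rather than to voltage and is known from glia and Schwann cells. It read 5.24, 5.02, 4.78 and 5.17 at day 0, 4.96, 4.53, 4.11 and 4.27 at day 3, 4.72, 4.46, 4.35 and 4.78 at day 7, and 5.54, 5.10, 4.77 and 4.90 at day 28. Each loaded day overlapped day 0. Scn7a fell by 0.58 ± 0.19 at day 3 (adjusted p = 0.0214 in limma), a call that was lost without day 0 replicate 1 (-0.52) or 4 (-0.54) and without day 3 replicate 3 (-0.47) or 4 (-0.52). Its differences from day 0 of -0.47 at day 7 and 0.03 at day 28 did not pass. The day 7 difference passed with arrays centred on the tested genes (-0.83) or the brighter 50% (-0.55), under cyclic loess (-0.63), with a fixed replicate block (-0.47), with no other days in the fit (-0.47), without the dimmest 50% of genes (-0.47) and without day 3 replicate 1 (-0.47). Of 15 Schwann cell and nerve markers 9 were measured, 6 of them dim, and 0 rose and 0 fell at day 3, where 1 had an unadjusted p under 0.05 in limma. Their mean level per array was 2.99 to 3.27 at day 3 and 2.93 to 3.10 at day 0, and their part in the Scn7a result was not tested.

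The sodium channel beta subunit genes moved in opposite directions. Scn4b fell while Scn3b rose, at both day 3 and day 7, and neither passed the test against day 0 at day 28. Scn4b read 9.27, 9.21, 9.23 and 8.99 at day 0, 8.07, 7.85, 8.48 and 7.31 at day 3, 7.42, 7.93, 8.48 and 8.12 at day 7, and 8.88, 9.12, 8.93 and 9.20 at day 28. Days 3 and 7 lay wholly below day 0, and day 28 overlapped it. Scn4b was 2.37-fold lower at day 3 (-1.25 ± 0.22, adjusted p = 0.000182 in limma) and 2.27-fold lower at day 7 (-1.18 ± 0.22, adjusted p = 0.00052). It then rose by 1.04 ± 0.22 at day 28 against day 7 (adjusted p = 0.00361), and its difference of -0.14 from day 0 at day 28 did not pass, with a 95% interval of -0.61 to 0.33. Scn3b read 4.58, 5.30, 5.26 and 5.41 at day 0, 7.49, 6.78, 6.09 and 7.46 at day 3, 7.61, 7.25, 6.85 and 7.62 at day 7, and 5.52, 4.40, 4.45 and 5.10 at day 28. Days 3 and 7 lay wholly above day 0. Scn3b was 3.53-fold higher at day 3 (1.82 ± 0.31, adjusted p = 0.000116 in limma) and 4.59-fold higher at day 7 (2.20 ± 0.31, adjusted p = 3.44e-05), and fell by 2.46 ± 0.31 at day 28 against day 7 (adjusted p = 5.68e-05). At day 28 against day 0 its difference was -0.27, with an interval of -0.92 to 0.39. Of 12 satellite cell and myoblast markers 9 were measured, 5 of which rose and 1 fell at day 3, and 7 rose and 0 fell at day 7. Their mean level per array lay between 5.97 and 6.24 at day 0, between 6.87 and 7.13 at day 3, between 7.25 and 7.56 at day 7, and between 6.20 and 6.54 at day 28, and their part in the Scn3b result was not tested.

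**Figure D3:**
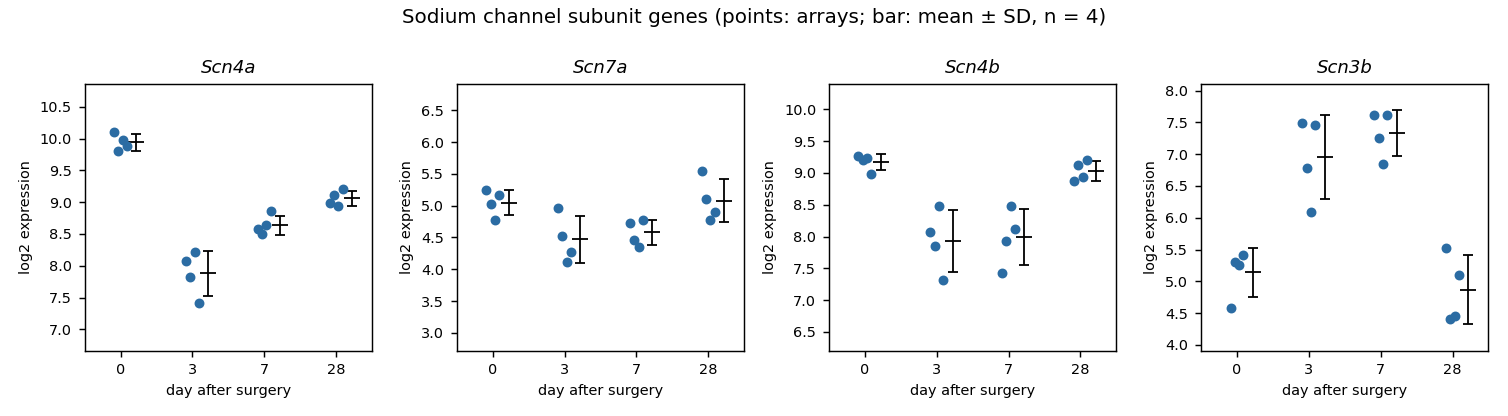
Log2 expression of the bright sodium channel subunit genes Scn4a, Scn7a, Scn4b and Scn3b at days 0, 3, 7 and 28. Blue points are the 4 arrays of a day and the black bars show mean ± SD. Each panel spans the same height on the log2 scale. The Scn4a points of all loaded days lie below day 0, and the Scn3b points of days 3 and 7 lie above it.

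The stretch of 250 bases before the RefSeq start is shown for the muscle sodium channel genes Scn4a and Scn4b, which fell together at days 3 and 7. Of the 29 members 22 had an entry in the RefSeq promoter set of the assembly GRCr8. The motif searched was the E-box CANNTG, which reads the same on both strands and is the kind of site that myogenic regulators such as MyoD and myogenin bind. It is printed in capitals, and each stretch reads 5′ to 3′ on the strand of its gene. In 27457 promoters of the same length, 1 per gene, 65.2% held a CANNTG and 25.5% held 1 of its forms CAGCTG and CACCTG (this last one also read on the other strand, as CAGGTG). Of the 22 members 18 held a CANNTG and 7 held 1 of those forms. The 7 were Scn4a, Scn4b, Scn7a, Cacng6 and the dim Cacng8, Scn11a and Scn2b. Cacng8 and Scn11a passed in 0 comparisons, and Scn2b rose at day 7. Cacna2d1, which fell on all 3 loaded days, held 0 CANNTG. Clcn4 and Itpr1 also fell and held neither form, and Scn3b, which rose, had no entry. The Scn4a stretch is chr10:91796325-91796574 on the minus strand and the Scn4b stretch is chr8:54343623-54343872 on the plus strand.
Scn4a: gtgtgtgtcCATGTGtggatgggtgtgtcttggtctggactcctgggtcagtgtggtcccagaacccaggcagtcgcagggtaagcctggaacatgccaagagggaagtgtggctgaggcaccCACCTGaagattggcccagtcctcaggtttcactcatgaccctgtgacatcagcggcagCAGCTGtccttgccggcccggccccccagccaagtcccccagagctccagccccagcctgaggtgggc
Scn4b: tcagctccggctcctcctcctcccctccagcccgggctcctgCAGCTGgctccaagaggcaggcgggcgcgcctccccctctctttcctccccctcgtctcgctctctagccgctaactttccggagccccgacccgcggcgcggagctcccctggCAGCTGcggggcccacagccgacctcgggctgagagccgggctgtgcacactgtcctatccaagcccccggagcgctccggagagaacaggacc
The Scn4a stretch holds 3 E-boxes: CATGTG with its first base at -241 from the start, CACCTG at -127, and CAGCTG at -68. The Scn4b stretch holds CAGCTG at -208 and again at -94. Of all promoters 30.1% held 2 or more CANNTG and 11% held 3 or more. A match to these letters is a description and does not show that a factor binds there.

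Of the calcium channel alpha-2-delta genes, Cacna2d1 fell and remained lower. Its product is the alpha-2-delta subunit of the muscle calcium channel, held on the outer face of the membrane. Cacna2d1 read 11.03, 10.84, 10.95 and 10.96 at day 0, 9.66, 9.30, 9.61 and 9.44 at day 3, 10.20, 9.75, 10.47 and 10.47 at day 7, and 9.91, 10.07, 10.27 and 10.61 at day 28. All loaded arrays lay below all day 0 arrays. It was 2.72-fold lower at day 3 (-1.44 ± 0.17, adjusted p = 2.15e-06 in limma), 1.65-fold lower at day 7 (-0.72 ± 0.17, adjusted p = 0.00336) and 1.66-fold lower at day 28 (-0.73 ± 0.17, adjusted p = 0.0115). It rose by 0.72 ± 0.17 at day 7 against day 3 (adjusted p = 0.00734), and between day 28 and day 7 the difference was -0.01, with an interval of -0.37 to 0.35.

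Cacna2d3, a subunit known mainly from nerve cells, was the low member. It read 3.92, 4.00, 4.19 and 4.37 at day 0, 3.44, 3.38, 3.69 and 3.46 at day 3, 3.55, 3.90, 4.17 and 3.83 at day 7, and 3.67, 3.56, 3.59 and 3.62 at day 28. Days 3 and 28 lay below day 0 without overlap. Cacna2d3 fell by 0.63 ± 0.14 at day 3 (adjusted p = 0.00126 in limma) and by 0.51 ± 0.14 at day 28 (adjusted p = 0.0282), and its difference of -0.26 at day 7 did not pass, except with arrays centred on the tested genes (-0.61) or under cyclic loess (-0.39). The day 28 call was lost without day 0 replicate 3 (-0.48) or 4 (-0.42), without day 28 replicate 1 (-0.53), 2 (-0.49) or 3 (-0.50), with an intensity trend and robust priors (adjusted p = 0.0719) and with all clusters tested (adjusted p = 0.0531). The remaining alpha-2-delta member, Cacna2d2, was dim (day means 2.40 to 2.64) and passed in 0 comparisons.

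The 3 bright gamma subunit genes differed in which comparisons they passed, and no test between them was run. Cacng1 and Cacng6 were both higher at day 7 than at day 3. Cacng1 encodes the gamma subunit of the skeletal muscle calcium channel. It read 10.92, 10.66, 10.98 and 10.88 at day 0, 10.64, 10.75, 10.86 and 10.28 at day 3, 11.16, 11.08, 11.13 and 11.08 at day 7, and 11.10, 11.01, 11.11 and 10.62 at day 28. Its differences from day 0 did not pass, at -0.23 (95% interval -0.53 to 0.07), 0.25 (-0.05 to 0.55) and 0.10 (-0.20 to 0.40) on the successive days, but the day 3 difference passed with arrays centred on the tested genes (-0.69) or on the brighter 50% (-0.38), and the day 7 difference under cyclic loess (0.37). The sign of these Cacng1 differences depended on the scaling, with 0.06 at day 3 under cyclic loess and -0.11 at day 7 with arrays centred on the tested genes. Against day 3, day 7 was 0.48 ± 0.14 higher (adjusted p = 0.0296 in limma). That call was lost with all clusters tested (0.48), with no other days in the fit (0.48) or under cyclic loess (0.31), without day 3 replicate 1 (0.48) or 4 (0.36) and without day 7 replicate 1 (0.46), 3 (0.47) or 4 (0.48).

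Cacng6 encodes the gamma subunit nearest to that of Cacng1 and is also known from striated muscle. It read 8.99, 8.99, 9.17 and 8.84 at day 0, 8.18, 7.71, 8.27 and 7.52 at day 3, 9.12, 9.49, 9.70 and 9.91 at day 7, and 9.40, 9.28, 9.72 and 9.32 at day 28. Day 3 lay wholly below the other days. Cacng6 was 2.11-fold lower at day 3 than at day 0 (-1.07 ± 0.19, adjusted p = 0.000136 in limma) and 3.10-fold higher at day 7 than at day 3 (1.63 ± 0.19, adjusted p = 1.41e-05). Against day 0, day 7 was 1.47-fold higher (0.56 ± 0.19, adjusted p = 0.0291), with 1 day 7 array inside the day 0 range. The rise over day 0 was lost with arrays centred on the tested genes (0.20) or the brighter 50% (0.49), without day 0 replicate 1 (0.56), 2 (0.56) or 4 (0.51) and without day 7 replicate 3 (0.51) or 4 (0.44). At day 28 the difference of 0.43 did not pass (adjusted p = 0.166), although the arrays did not overlap those of day 0.

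Cacng7 belongs to the branch of the gamma family that is known for moving AMPA receptors in the brain. It read 7.32, 7.42, 7.21 and 6.91 at day 0, 5.43, 5.83, 5.50 and 4.98 at day 3, 4.76, 5.13, 6.03 and 5.46 at day 7, and 7.13, 6.92, 6.80 and 6.35 at day 28. Days 3 and 7 lay wholly below day 0, and day 28 overlapped it. Cacng7 was 3.44-fold lower at day 3 (-1.78 ± 0.24, adjusted p = 1.02e-05 in limma) and 3.65-fold lower at day 7 (-1.87 ± 0.24, adjusted p = 1.37e-05). It then rose by 1.45 ± 0.24 at day 28 against day 7 (adjusted p = 0.000593), and its difference of -0.42 from day 0 at day 28 did not pass, with an interval of -0.93 to 0.09. The other 4 gamma genes, Cacng2, Cacng3, Cacng4 and Cacng8, were dim and passed in 0 comparisons.

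Itpr1 encodes an inositol trisphosphate receptor, which releases calcium from the endoplasmic reticulum in most cell types. It read 6.71, 6.78, 7.32 and 7.20 at day 0, 5.99, 6.21, 6.20 and 5.83 at day 3, 6.62, 6.41, 6.33 and 6.53 at day 7, and 6.79, 6.93, 6.91 and 7.13 at day 28. Days 3 and 7 lay below day 0 without overlap. Itpr1 was 1.93-fold lower at day 3 (-0.95 ± 0.15, adjusted p = 4.65e-05 in limma) and 1.45-fold lower at day 7 (-0.53 ± 0.15, adjusted p = 0.0103), and its difference was -0.06 at day 28, with an interval of -0.38 to 0.25. The rise of 0.47 ± 0.15 at day 28 against day 7 (adjusted p = 0.0368) was lost under cyclic loess (0.45), with a fixed replicate block (0.47, adjusted p = 0.0505) or with all clusters tested (0.47). It was also lost without day 7 replicate 2 (0.45), 3 (0.42) or 4 (0.49), and without day 28 replicate 2 (0.47), 3 (0.48) or 4 (0.41). Of 13 endothelial markers 9 were measured, 0 of them dim, with 1 higher and 5 lower at day 3. Their mean level per array lay between 6.26 and 6.65 at day 0, between 5.39 and 5.72 at day 3, between 5.58 and 5.85 at day 7, and between 5.96 and 6.76 at day 28, and their part in the Itpr1 result was not tested.

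**Figure D4:**
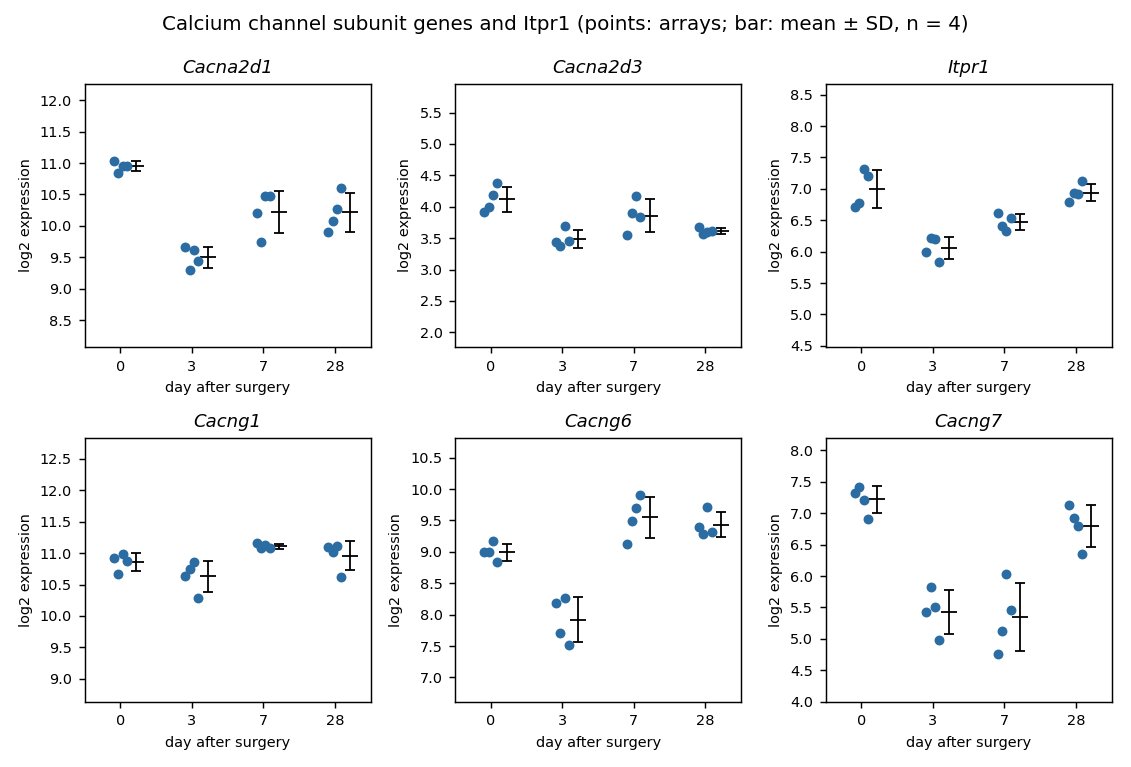
Log2 expression of Cacna2d1, Cacna2d3, Itpr1, Cacng1, Cacng6 and Cacng7 at days 0, 3, 7 and 28. Blue points are the 4 arrays of a day and black bars show mean ± SD, with panels of equal height on the log2 scale. Cacng6 is lowest at day 3 and Cacng7 is low at both day 3 and day 7.

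The promoter stretch of Cacng6 is shown because this gene fell at day 3 and was above that level by day 7. It is chr1:74662754-74663003 of GRCr8 on the minus strand, again with E-boxes in capitals.
Cacng6: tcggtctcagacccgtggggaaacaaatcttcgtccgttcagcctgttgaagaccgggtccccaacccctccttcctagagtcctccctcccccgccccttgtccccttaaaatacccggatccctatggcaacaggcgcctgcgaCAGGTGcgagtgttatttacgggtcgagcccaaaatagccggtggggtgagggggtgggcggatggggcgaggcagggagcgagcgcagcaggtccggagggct
It holds 1 E-box, CAGGTG, at -104. Cacng1 and Cacng7 had no entry in the promoter set.

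The 3 intracellular chloride/proton exchanger genes measured went separate ways, and Clcn3 and Clcn5 were not among them. Clcn4, which encodes an exchanger of endosomes, read 7.65, 7.68, 7.54 and 7.56 at day 0, 6.08, 5.94, 6.06 and 5.44 at day 3, 6.78, 6.53, 6.78 and 6.30 at day 7, and 7.28, 7.31, 7.47 and 7.60 at day 28. Days 3 and 7 lay wholly below day 0. Clcn4 was 3.31-fold lower at day 3 (-1.73 ± 0.15, adjusted p = 5.85e-08 in limma) and 2.02-fold lower at day 7 (-1.01 ± 0.15, adjusted p = 5.94e-05). It rose by 0.72 ± 0.15 at day 7 against day 3 (adjusted p = 0.0032) and by 0.82 ± 0.15 at day 28 against day 7 (adjusted p = 0.00128). At day 28 its difference from day 0 was -0.19, with an interval of -0.51 to 0.12.

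Clcn7 encodes the exchanger of lysosomes, which osteoclasts also use at the membrane facing bone. It read 5.49, 5.03, 5.24 and 5.30 at day 0, 6.04, 6.29, 5.65 and 6.48 at day 3, 5.96, 5.94, 5.66 and 5.96 at day 7, and 5.86, 5.85, 5.31 and 5.36 at day 28. Days 3 and 7 lay wholly above day 0. Clcn7 was 1.80-fold higher at day 3 (0.85 ± 0.18, adjusted p = 0.000887 in limma) and 1.53-fold higher at day 7 (0.61 ± 0.18, adjusted p = 0.0145), and its difference of 0.33 at day 28 did not pass. Both calls were lost with arrays centred on the tested genes, at 0.39 (adjusted p = 0.0607) and 0.25 (adjusted p = 0.227). Of the macrophage markers 16 of 16 rose at both day 3 (median 4.06) and day 7 (median 2.71), and their part in the Clcn7 result was not tested.

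Clcn6 encodes an exchanger of late endosomes and passed in 0 of 5 comparisons, with an unadjusted p under 0.05 in 0 of them in limma. It read 6.44, 6.59, 6.45 and 5.92 at day 0 and 5.82, 5.29, 6.37 and 6.39 at day 3, and its day means at days 7 and 28 were 6.39 and 6.36. Its differences from day 0 were -0.38 (interval -0.87 to 0.10), 0.04 (-0.45 to 0.52) and 0.01 (-0.47 to 0.50). The day 3 difference passed with arrays centred on the tested genes (-0.85). Clcn6 was the only member with 2 clusters. The other cluster, with a mean of 6.03, had differences from day 0 of 0.03 (day 3), 0.14 (day 7) and -0.01 (day 28), none of which passed, so the 2 clusters differed in sign at days 3 and 28. The surface chloride channel gene measured here, Clcn2, was dim, with day means of 2.15 to 2.39, and passed in 0 comparisons.

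**Figure D5:**
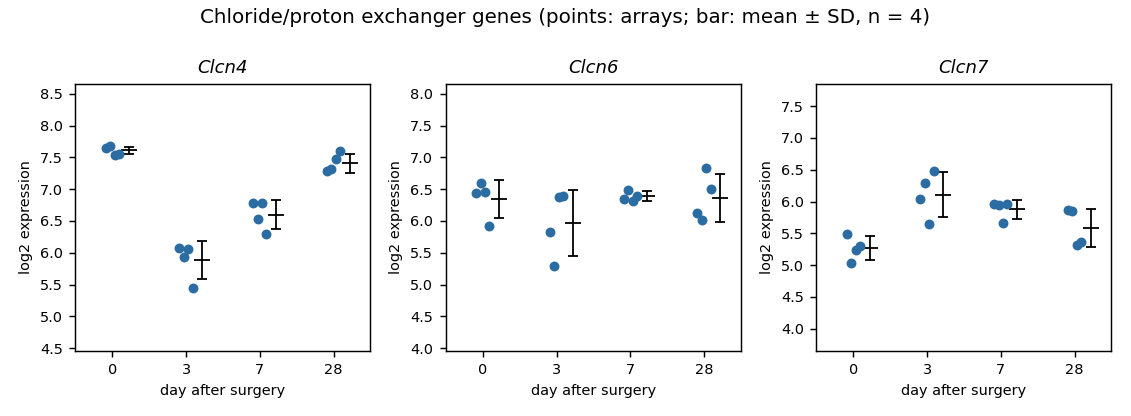
Log2 expression of Clcn4, Clcn6 and Clcn7 at days 0, 3, 7 and 28. Blue points are the 4 arrays of a day and black bars show mean ± SD, with panels of equal height on the log2 scale. Clcn4 lies below day 0 and Clcn7 above it at days 3 and 7.

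The promoter stretches of the 3 exchanger genes measured are shown because each holds the same E-box form, CACGTG. It is the palindrome bound by factors such as TFEB and MITF that act on lysosomal genes. This form was picked out after the sequences were seen. It was found in 5.8% of the 27457 promoters and in 3 of the 22 members, which are these. The stretches are chrX:27290689-27290938 on the plus strand, chr5:163748199-163748448 on the minus strand and chr10:14656011-14656260 on the plus strand of GRCr8, with every CANNTG in capitals.
Clcn4: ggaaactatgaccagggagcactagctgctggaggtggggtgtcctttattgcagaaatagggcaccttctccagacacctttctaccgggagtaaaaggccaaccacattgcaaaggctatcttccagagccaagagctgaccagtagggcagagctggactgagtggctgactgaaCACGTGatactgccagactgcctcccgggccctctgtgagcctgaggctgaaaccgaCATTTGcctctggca
Clcn6: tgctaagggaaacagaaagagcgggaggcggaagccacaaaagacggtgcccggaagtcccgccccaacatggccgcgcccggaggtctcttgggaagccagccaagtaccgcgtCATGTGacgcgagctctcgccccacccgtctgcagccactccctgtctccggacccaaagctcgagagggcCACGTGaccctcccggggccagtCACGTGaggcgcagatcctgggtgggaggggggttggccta
Clcn7: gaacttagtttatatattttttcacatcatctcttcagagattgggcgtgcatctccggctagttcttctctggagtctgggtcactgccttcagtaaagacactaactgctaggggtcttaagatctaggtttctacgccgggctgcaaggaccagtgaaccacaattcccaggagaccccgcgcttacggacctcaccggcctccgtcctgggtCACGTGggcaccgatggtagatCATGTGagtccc
CACGTG starts at -72 in Clcn4, at -64 and -41 in Clcn6, and at -34 in Clcn7. The genes that share it fell (Clcn4), rose (Clcn7) and did not pass (Clcn6) at day 3.

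Most of the dim members are known from nerve cells, the retina or the brain. Among the calcium pore genes these were Cacna1b (N-type), Cacna1e (R-type), Cacna1f (retinal L-type) and Cacna1h (T-type). They were joined by the beta subunit gene Cacnb4 and, among sodium pore genes, by Scn2a1 of the brain and Scn9a, Scn10a and Scn11a of sensory neurons. Scn2b was the dim beta subunit gene. Means over 16 arrays ran from 1.46 to 2.96, and 7 of the 16 lay above the 90th percentile of olfactory receptor genes (2.40). Against day 0, 1 dim member fell at day 3, 1 rose at day 7, and 0 rose and 0 fell at day 28. At day 28, 0 dim members had an unadjusted p under 0.05 in limma. Among all genes, dim or not, 19.6% fell at day 3 and 16.9% rose at day 7. No share was taken over dim genes alone. Differences at these levels are compressed and stand as measured only.

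Cacna1h, a calcium channel that opens at low voltage, read 3.88, 2.75, 2.43 and 3.98 at day 0 and 2.49, 2.51, 2.44 and 2.06 at day 3. The groups overlapped, and 2 of the day 0 arrays stood apart at the upper end. Cacna1h fell by 0.88 ± 0.33, with adjusted p = 0.0413 in limma, and the call was lost without day 0 replicate 1 (-0.68) or 4 (-0.64) and without day 3 replicate 1 (-0.92), 2 (-0.93), 3 (-0.90) or 4 (-0.78). It was also lost with no other days in the fit (adjusted p = 0.051), with a fixed replicate block (adjusted p = 0.0613) and with all clusters tested (adjusted p = 0.0698).

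Scn2b read 2.35, 2.14, 2.34 and 2.07 at day 0, 2.64, 2.63, 2.04 and 2.80 at day 3, 2.87, 2.72, 3.27 and 3.04 at day 7, and 2.15, 2.20, 2.74 and 1.97 at day 28. Day 7 lay wholly above day 0. Scn2b rose by 0.75 ± 0.18 at day 7 (adjusted p = 0.00456 in limma), a call lost with arrays centred on the tested genes (0.39), and fell by 0.71 ± 0.18 at day 28 against day 7 (adjusted p = 0.0122).

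The partners of these channels were followed in 2 lists. Of 38 genes of excitation-contraction coupling and calcium stores 24 were measured, and 4 rose and 13 fell at day 3 (median -0.52), 5 rose and 6 fell at day 7 (median -0.09), and 2 rose and 0 fell at day 28 (median -0.09). Jph2, which ties the transverse tubule to the sarcoplasmic reticulum, fell by 2.37 ± 0.24 at day 3 and by 1.23 ± 0.24 at day 7. Casq2, a calcium-binding protein of the store, rose by 2.10 ± 0.25 at day 7, and its difference of 0.04 at day 28 did not pass. Of 26 partners of sodium and chloride channels 11 were measured, and 0 rose and 5 fell at day 3 (median -0.38), 2 rose and 4 fell at day 7 (median -0.22), and 0 rose and 1 fell at day 28 (median -0.03). Nedd4l, a ubiquitin ligase known to act on sodium channels, fell by 1.04 ± 0.13 at day 3 (adjusted p = 2.66e-06 in limma) and by 0.64 ± 0.13 at day 7. Sntb1, a syntrophin of the membrane scaffold, fell by 1.67 ± 0.16 at day 3 and by 1.05 ± 0.16 at day 7. Slc12a2, the sodium, potassium and chloride cotransporter, fell by 1.27 ± 0.17 at day 3 and by 0.65 ± 0.17 at day 28 (adjusted p = 0.0254). The 2 that rose at day 7 were Slc12a4, by 0.57 ± 0.17, and the dim Hepacam2, by 0.45 ± 0.15.

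Day 3 replicate 4 held the lowest value of its day in 7 of the 12 bright members, namely Scn4a, Scn4b, Cacng1, Cacng6, Cacng7, Itpr1 and Clcn4. Its mean level of adult fibre genes was 11.98, against 12.12 to 12.31 on the other day 3 arrays, and its macrophage level was 9.05, against 8.69 to 9.09. With each array left out in turn, the day 3 differences from day 0 ran from -2.18 to -1.91 for Scn4a, -1.43 to -1.04 for Scn4b, -1.80 to -1.58 for Clcn4 and -1.91 to -1.63 for Cacng7. All 4 of these calls held with each array left out.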

How the data were processed

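The table deposited by the authors gives a log2 value for each transcript cluster on each Affymetrix Rat Gene 2.1 ST array. RMA, oligo and limma are named, without version or order, in the submitters' processing notes, and the genome build is not given in the sources used here. The table held 36685 clusters with values from 0.0686 to 13.6. The platform annotation listed 15653 clusters, 14824 with 1 symbol, which gave 14557 genes at 1 cluster each, the one with the highest mean. Of the 29 members 28 had their gene identifier in the RefSeq table of GRCr8, and promoter sequences are credited to RefSeq.

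These values were fitted as they stand with limma 3.58.1 in R 4.3.3, with 1 mean per day and all 16 arrays in 1 fit (12 residual and 4.99 prior degrees of freedom), for 5 comparisons. P-values were two-sided and adjusted by Benjamini-Hochberg over all genes within each. The code was tested on simulated data. Precision is limited by the number of arrays, which have no read depth. Bright and low members called against day 0, and the muscle channel genes, are named with values, dim members by counts and ranges with those called named, and list genes from the 4 largest called differences of a comparison. Clcn6, with no call, is described to account for every bright member. The members, lists and tests were chosen with earlier results of these data known. Pair differences planned between channel genes each needed a gene without a cluster of its own and were not run. Replicate numbers were not used as pairs, since no label says that they pair the samples. The 24 same-numbered pairs correlated at -0.0355 to 0.0916 in their deviations from day means, 0 over 0.1. Their median was 0.0188, beside -0.00699 for pairs of other numbers. Such low correlations cannot exclude a shared batch. The alternatives were those listed in the closing section.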

Additional observations from a re-analysis of the deposited data

Results flagged for a closer look

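Cacng6 was picked out because its differences from day 0 had opposite signs at day 3 (-1.07) and day 7 (0.56), both called in limma, and the test of the difference between the 2 days passed, at 1.63 with adjusted p = 1.41e-05. The comparisons with day 0 share their control arrays.

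In 116 groups of 4 arrays (29 genes on 4 days), 8 held an array far from the other 3, where chance gives about 1 in 20, or 5.8. Clcn7 read 5.66 on day 7 replicate 3, against 5.94 to 5.96 on the others. Cacna1h read 2.06 on day 3 replicate 4, against 2.44 to 2.51. The other 6 were of dim genes with 0 calls. Cacna1e read 2.58 on day 3 replicate 2 (others 1.97 to 1.99), Cacnb4 1.91 on day 3 replicate 1 (2.59 to 2.71), and Cacng2 2.61 on day 0 replicate 3 (1.79 to 1.91). Scn2a1 read 2.35 on day 7 replicate 4 (1.64 to 1.70), and Scn9a read 2.02 on day 7 replicate 2 (1.38 to 1.46) and 1.93 on day 28 replicate 1 (1.19 to 1.26).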

How the results depend on the processing

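The 12 alternative settings were array weights, an intensity trend with robust priors, centring on the tested genes or their brighter 50%, a filter on the dimmest 25% or 50% of genes, cyclic loess, the mean of a gene's clusters, no other days in the fit, a fixed or random block, and all clusters tested. These and 16 fits without 1 array were run for the counts of members and for 75 differences of 15 named members. Of the 75 differences 16 took both signs over these, 0 of them called as reported and 3 called in some alternative: Cacng1 at day 3 (-0.69 to 0.06) and day 7 (-0.11 to 0.37), and Scn2b at day 3 (-0.16 to 0.46). In the 12 settings 845 values stayed on their side of the threshold, 16 lost their call and 24 gained one, and in the fits without an array 1165 stayed, 31 lost it and 4 gained one. Counts moved by over 1.5 times in limma as follows. With arrays centred on the tested genes, 1 member was higher and 21 lower at day 3, 1 higher and 16 lower at day 7, and 0 higher and 5 lower at day 28 against day 0. Of all genes, 12.9%, 9.73% and 3.74% were then higher and 58.0%, 48.3% and 20.9% lower. With the same centring 8 members were higher at day 7 against day 3 (9.44% of all genes) and 7 at day 28 against day 7 (13.8% of all genes). Without the dimmest 50% of genes, 1 was lower at day 28 against day 7, as Scn2b was then not tested. Leaving out each array gave 2 to 3 higher and 8 to 12 lower members at day 3, 3 to 4 and 6 to 7 at day 7, 0 and 2 to 3 at day 28 against day 0, 4 to 5 and 0 at day 7 against day 3, and 3 to 5 and 2 at day 28 against day 7. Of all 14557 genes, 2952 to 3189 were then higher and 2519 to 2878 lower at day 3. The all-gene counts were 2175 to 2483 and 1844 to 2178 at day 7, and 641 to 1015 and 235 to 498 at day 28. They were 630 to 919 and 1039 to 1371 at day 7 against day 3, and 925 to 1254 and 1102 to 1384 at day 28 against day 7. With the replicate number as a fixed replicate block, 2 members were higher and 9 lower at day 3, 4 and 7 at day 7, and 0 and 3 at day 28. As a random block the counts were 2 and 10, 4 and 6, and 0 and 3. The samples share only a number, and 7 of 16 arrays resembled their own number most. By the olfactory limit of 2.40 in place of 3.3, 9 members were dim. The planned pair differences were not run, since none had both genes. Signal near background limits what can be said of the 16 dim members, whose differences are compressed.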

Other observations

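Several members are neighbours in the rat genome, by the order of protein-coding genes in the RefSeq table of GRCr8. Cacng6, Cacng8 and Cacng7 follow each other on chromosome 1 with 0 protein-coding genes between them. Cacng8 was dim. At day 3 Cacng6 (-1.07) and Cacng7 (-1.78) had both fallen against day 0, and at day 7 Cacng6 stood at 0.56 and Cacng7 at -1.87 against day 0. Scn2b and Scn4b lie side by side on chromosome 8, and at day 7 against day 0 Scn2b rose by 0.75 and Scn4b fell by 1.18. Scn9a and Scn7a are neighbours on chromosome 3, and Cacng1 and Cacng4 on chromosome 10, where in each pair 1 gene was bright and the other dim. No test of the difference between neighbours was run, since the pairs were chosen after their values were seen.

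Genes of the neuromuscular junction and of denervation moved on the same arrays. Of 18 listed 11 were measured, and 2 rose and 5 fell at day 3 (median -0.46), 4 rose and 0 fell at day 7 (median 0.19), and 1 rose and 2 fell at day 28 (median -0.11), each against day 0. The largest called differences at day 3 were rises, of Gadd45a (3.07 ± 0.17) and Myog (2.27 ± 0.27). Chrne, the adult subunit of the acetylcholine receptor, fell by 1.15 ± 0.15 at day 3 (adjusted p = 8.27e-06 in limma). At day 7 its difference of 0.15 from day 0 did not pass (adjusted p = 0.506). Day 7 was 1.3 ± 0.15 higher than day 3 (adjusted p = 1.9e-05). At day 28 Chrne was lower than at day 0 by 0.62 ± 0.15 (adjusted p = 0.0154). Chrng, the embryonic subunit, rose by 1.53 ± 0.20 at day 7 (adjusted p = 1.79e-05) and fell by 1.99 ± 0.20 at day 28 against day 7 (adjusted p = 9.09e-06). At day 7 Gadd45a also rose by 2.29 ± 0.17, Chrna1 by 2.04 ± 0.44 and Myog by 1.36 ± 0.27. At day 28 against day 0 Gadd45a was higher by 0.78 ± 0.17, and Chrnb1 was lower by 0.49 ± 0.13.

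Other cell type lists gave these counts against day 0. Of 12 fibroblast markers 11 rose and 0 fell at day 3 (median 2.98), 11 rose and 0 fell at day 7 (median 3.05), and 10 rose and 0 fell at day 28 (median 1.79). Of 9 proliferation markers measured 9 rose at day 3, 5 at day 7 and 1 at day 28, and 0 fell. Of 8 pericyte and smooth muscle markers measured 1 rose and 3 fell at day 3, 2 rose and 2 fell at day 7, and 1 rose and 1 fell at day 28. Their part in the results on channel genes was not tested.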
